A study of Mus musculus with 12 samples.

Results

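The respiratory chain of the inner mitochondrial membrane is built from proteins of both genomes, and the genes described here are its nuclear-encoded subunits. They were chosen by symbol: Nduf genes for complex I, Sdh genes for complex II, Uqcr genes for complex III, Cox4 to Cox8 genes for complex IV and Atp5 genes for the ATP synthase. The rule found 91 gene identifiers among the 35688 genes of the table. Of these, 5 are numbered pseudogene symbols, whose levels are given apart, and 3 are second identifiers of Atp5a1, Ndufs3 and Uqcrc1 whose values equal those of the first identifier in all 11 libraries, so each was counted once. That leaves 83 genes on 19 chromosomes, and 79 of them had a value over 1 in at least 5 libraries and were tested. The rule does not take in Cyc1, Cycs or Ndufab1, it places Ndufa4 in complex I although its protein is now known to sit in complex IV, and it admits Atp5s, which is not a core subunit.

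Complex I takes electrons from NADH and complex II takes them from succinate, a step it shares with the citrate cycle. Complex III passes them through cytochrome c to complex IV, which reduces oxygen, and the ATP synthase uses the proton gradient that the chain builds. The absorptive epithelium of the colon burns bacterial short-chain fatty acids through this pathway and is among the oxygen-consuming cell layers of the gut.

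RNA was measured in whole colons of mice 2 weeks old, one library per mouse. The mice either lacked Il10 alone (Il10-/-, 5 libraries, replicates 1, 2, 3, 5 and 6) or lacked both Il10 and Tnfr1 (Il10-/- Tnfr1-/-, 6 libraries). Both groups therefore lack interleukin 10, an anti-inflammatory cytokine, and the comparison is about the loss of TNF receptor 1, the product of Tnfrsf1a. No mouse with intact Il10 is in the comparison, and the labels used here do not give the alleles, the sex, the litter or a batch. Since the tissue is bulk colon, fewer cells of a type and less RNA per cell cannot be told apart. Where nothing says more, the spread between libraries is taken as the spread between mice.

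The values are scaled abundances per transcript length, summed over a gene's transcripts, with library sums between 804109 and 1378971. Tnfrsf1a lay at 47.9 ± 18.5 (SD, n = 5) where Il10 alone was lost and at 14.8 ± 2.34 (SD, n = 6) where both genes were lost, and the groups did not overlap. Its log2 difference was -1.60 ± 0.22 (SE), with a limma adjusted p of 0.125 (Benjamini-Hochberg over 13561 genes). Il10, which both genotypes lack, was listed at 15.3 ± 6.44 and 5.14 ± 1.56, and its groups did not overlap either. Its log2 difference was -1.44 ± 0.28 (SE, limma adjusted p = 0.536). What part of either gene the reads come from was not examined. Markers of colonocytes were present in every library, with summed abundances of 5345 to 8935 in Il10-/- and 3610 to 46165 in Il10-/- Tnfr1-/- colons. The value of 46165 was that of Il10-/- Tnfr1-/- replicate 6, where Car1 alone was at 32160. In the other Il10-/- Tnfr1-/- colons Car1 lay between 131 and 3564. The 10 smooth muscle markers summed to between 184 and 3505 in Il10-/- and between 828 and 8010 in Il10-/- Tnfr1-/- colons, with none at 0 everywhere. Of these 10 markers, 9 were higher in Il10-/- Tnfr1-/- colons at an unadjusted limma p under 0.05, where 4.74% of all tested genes were. Of the same 10 markers, 0 passed the adjusted threshold of 0.05. Their part in the values below was not tested beyond the fit with a smooth muscle score given further on. The first digit of a mouse's name also differs between the groups: a leading 1 occurs in both genotypes, a leading 2 or 3 belongs to Il10-/- Tnfr1-/- mice alone, and a leading 4 to Il10-/- mice alone.

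No nuclear-encoded respiratory chain gene passed the test between the genotypes. With limma and Benjamini-Hochberg adjustment, 0 of the 79 tested genes passed an adjusted p of 0.05, where 0% of all 13561 tested genes did. At an unadjusted p under 0.05 the count was also 0 of 79, beside 1131 genes or 8.34% of all tested (4.74% higher and 3.6% lower). The groups overlapped in all 79, beside 78 genes or 0.575% of all tested whose groups did not. The smallest p belonged to Ndufb2 (unadjusted 0.0756, limma adjusted p = 0.536). The differences that were measured had a common sign. Of the 79, 64 or 81.0% had a negative log2 difference, where 44.5% of all tested genes did. A negative value is a lower mean of the log2 values in Il10-/- Tnfr1-/- colons. The median log2 difference of the 79 genes was -0.20, beside 0.05 over all tested genes. The SE of a single gene's difference had a median of 0.25, so the median difference is smaller than the error of a typical member.

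Complex by complex, the counts of negative log2 differences were 33 of 37 in complex I, 1 of 4 in complex II and 4 of 8 in complex III. They were 14 of 14 in complex IV and 12 of 16 in the ATP synthase. The median log2 differences were -0.22 in complex I, 0.06 in complex II, -0.15 in complex III, -0.18 in complex IV and -0.25 in the ATP synthase. Complex II was thus the one complex whose median was above 0. The abundance summed over the 79 tested genes was 44988 ± 15260 (SD, n = 5) for Il10-/- colons, against 37817 ± 9428 (SD, n = 6) for Il10-/- Tnfr1-/- colons. As a share of everything in the library it was 4.19% ± 0.711 and 3.94% ± 0.660, with ranges of 3.40% to 5.12% and 3.27% to 4.94% that overlap almost wholly.

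**Figure D1:**
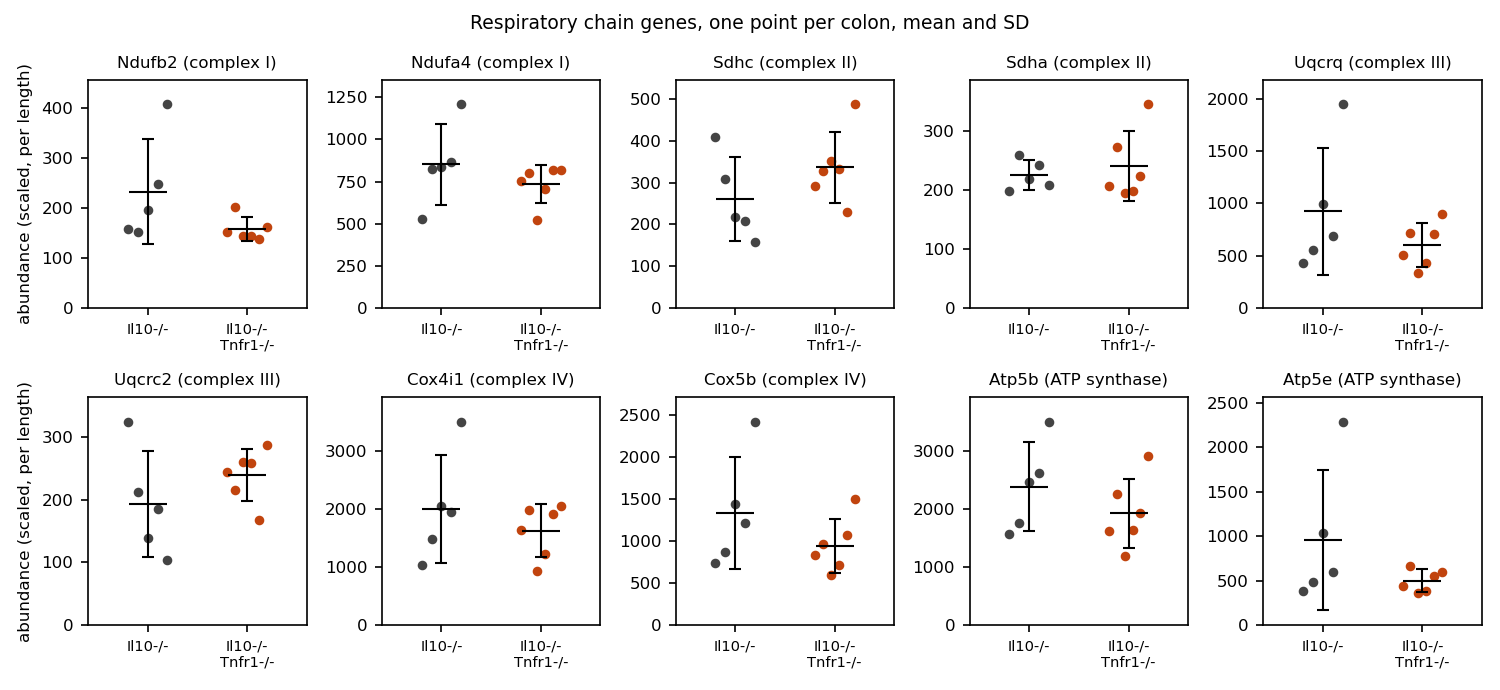
Abundance (scaled, per transcript length) of 10 respiratory chain genes, 1 point per colon, with the mean and SD of the 5 Il10-/- and 6 Il10-/- Tnfr1-/- colons. The groups overlap for all 10 genes, and in Ndufb2, Uqcrq, Cox4i1, Cox5b and Atp5e a single Il10-/- colon lies far above the rest.

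Complex I is the largest complex and had the member with the smallest p. Ndufb2, an accessory subunit of the membrane arm (chr6:39592574-39603382, plus strand, GRCm38), had abundances of 159, 152, 197, 248 and 408 in Il10-/- replicates 1, 2, 3, 5 and 6. In the Il10-/- Tnfr1-/- colons it ran from 139 through a median of 149 to 203. The Il10-/- Tnfr1-/- colons were tightly grouped, and 3 of the Il10-/- colons lay inside their range. The log2 difference was -0.47 ± 0.24 (SE), and -0.25 without Il10-/- replicate 6.

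Ndufa6, an accessory subunit of the LYR protein family, gave the next smallest p in complex I. Its abundance was 586, 490.5, 676, 760.2 and 1016 in the Il10-/- colons and ran from 369 through 562 to 719 in the Il10-/- Tnfr1-/- colons. Its log2 difference was -0.36 ± 0.24 (SE, limma adjusted p = 0.549), with -0.22 when Il10-/- replicate 6 was left out.

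Ndufa4 was the most abundant gene that the rule assigns to complex I. It lay at 530.2, 824, 834, 867 and 1208 in the Il10-/- colons and between 522 and 819 (median 777) in the Il10-/- Tnfr1-/- colons. Each group had 1 low colon, apart from its other members, and the ranges overlapped. The log2 difference was -0.18 ± 0.22 (SE, limma adjusted p = 0.712).

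The core subunits that carry the flavin and the iron-sulfur clusters did not move as one. Ndufs1, the largest of them, was the steadiest of all 79 genes, from 88.0 to 132 over the 11 libraries, with a highest-to-lowest ratio of 1.5. Ndufs8 was nearly as steady, with a ratio of 1.55. Ndufv1, which binds the flavin, ran from 113 to 426 with its highest value in Il10-/- replicate 6, and its log2 difference was -0.40 ± 0.31 (SE, limma adjusted p = 0.588).

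Complex II has 4 subunits, all nuclear-encoded: Sdha with the flavin, Sdhb with the iron-sulfur clusters, and the membrane anchors Sdhc and Sdhd. Sdha was at 199, 261, 218, 244 and 208 in the Il10-/- colons and from 196 through 216 to 346 in the Il10-/- Tnfr1-/- colons. Sdhb was at 177, 175, 161, 205 and 237 in the Il10-/- colons and from 164 through 183 to 302 in the others. Sdhd was at 377, 371, 382, 330.4 and 423 in the Il10-/- colons and from 257 through 364 to 495 in the others. In all 3 genes Il10-/- Tnfr1-/- replicate 6 held the highest value of the 11 colons, and their log2 differences were 0.07 ± 0.18, 0.05 ± 0.19 and -0.08 ± 0.19 (SE).

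Sdhc (chr1:171127165-171150603, minus strand, GRCm38) had the largest positive difference of the 79 genes. It lay at 410.3, 309.9, 218, 209 and 158 in the Il10-/- colons and from 229 through 329 to 488 in the Il10-/- Tnfr1-/- colons. Here Il10-/- replicate 6 was the lowest colon instead of the highest. The log2 difference was 0.41 ± 0.26 (SE, limma adjusted p = 0.541). Much of that value rests on 1 annotated transcript of 298 bases, which carried between 26.4% and 59.6% of the gene's abundance. Without that transcript Sdhc was at 139.7 ± 20.5 (SD, n = 5) and 158.7 ± 34.0 (SD, n = 6), and the log2 difference was 0.17.

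In complex III the means of Uqcrh, Uqcrq, Uqcr10 and Uqcr11 were lower and those of Uqcrb, Uqcrc1, Uqcrc2 and Uqcrfs1 higher in Il10-/- Tnfr1-/- colons. Uqcrh, the hinge protein that binds cytochrome c1, was its most abundant member, at 784, 976, 1614, 1195 and 2729 in the Il10-/- colons and from 771 through 1135 to 1330.4 in the Il10-/- Tnfr1-/- colons. Uqcrq, a small membrane subunit, was at 433, 556, 999, 685 and 1949 in the Il10-/- colons and from 332 through 607 to 902 in the others. In both genes Il10-/- replicate 6 stood highest and the other Il10-/- colons lay among the Il10-/- Tnfr1-/- colons or just above them. The log2 difference of Uqcrq was -0.49 ± 0.38 (SE, limma adjusted p = 0.586), and -0.17 without Il10-/- replicate 6.

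Uqcrc2, a large core protein of the matrix side (chr7:120635176-120659524, plus strand, GRCm38), went the other way. Its abundance was 325, 213, 139, 186 and 103 in the Il10-/- colons and ran from 169 through 252 to 288 in the Il10-/- Tnfr1-/- colons. Il10-/- replicate 6 was the lowest colon and Il10-/- replicate 1 the highest, so the Il10-/- range enclosed the other group. The log2 difference was 0.40 ± 0.27 (SE, limma adjusted p = 0.552), with 0.20 without Il10-/- replicate 6 and 0.30 when its short transcripts were left out. Uqcrfs1, the Rieske iron-sulfur protein, had its highest value of 440.0 in Il10-/- Tnfr1-/- replicate 6, while the other 10 colons lay between 178 and 262.

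Complex IV had a negative log2 difference for every one of its 14 tested genes, by small amounts that ran from -0.44 to -0.01. For Cox8a, the nearest to 0, the arithmetic mean was 1578 in Il10-/- and 1593 in Il10-/- Tnfr1-/- colons, so not lower. Cox4i1, the ubiquitous form of subunit 4, was the most abundant gene of complex IV. It lay at 1041, 1478, 2048, 1944 and 3512 in the Il10-/- colons and from 930.1 through 1775 to 2054 in the others. Cox5b, a zinc-binding subunit, was at 735, 865, 1434, 1212 and 2415 in the Il10-/- colons and from 590.3 through 895 to 1500.1 in the others. Both genes were highest in Il10-/- replicate 6 and lowest in Il10-/- Tnfr1-/- replicate 3. Cox5b gave the smallest p of the complex, with a log2 difference of -0.44 ± 0.32 (SE, limma adjusted p = 0.579) that came to -0.19 without Il10-/- replicate 6. For Cox4i1 the difference was -0.24 ± 0.32 (SE), and -0.01 without that colon.

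Cox7a2l, a factor that joins complexes III and IV into supercomplexes, lay at 176, 218, 285, 335 and 465 in the Il10-/- colons and from 179 through 251 to 309.7 in the others. Its highest colon was again Il10-/- replicate 6, but its lowest was Il10-/- replicate 1. The log2 difference was -0.22 ± 0.25 (SE, limma adjusted p = 0.696).

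In the ATP synthase, Atp5b, the catalytic beta subunit, was the most abundant of all 83 genes. It lay at 1576, 1753, 2459, 2622 and 3506 in the Il10-/- colons and ran from 1182 through 1787 to 2906 in the Il10-/- Tnfr1-/- colons. The log2 difference was -0.30 ± 0.28 (SE, limma adjusted p = 0.621).

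Atp5e, the epsilon subunit of the central stalk (chr2:174461072-174464105, minus strand, GRCm38), had the most negative difference of the 79 genes. Its abundance was 379, 483, 1038, 599.9 and 2291 in the Il10-/- colons and ran from 356 through 495 to 667 in the others. Il10-/- replicate 6 was 3.67 times the mean of the other 4 Il10-/- colons. The log2 difference of -0.65 ± 0.41 (SE, limma adjusted p = 0.538) came to -0.25 without it.

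Atp5d, the delta subunit of the same stalk, was at 434, 436, 634, 638 and 1321 in the Il10-/- colons and ran from 349.5 through 470.4 to 631 in the others. Its log2 difference was -0.43 ± 0.29 (SE, limma adjusted p = 0.552), and -0.17 without Il10-/- replicate 6. The gamma subunit Atp5c1, by contrast, ranged over only 313 to 503 across the 11 colons, with a log2 difference of 0.15 ± 0.16 (SE).

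Individual colons differed in their levels. Over the 11 colons of both genotypes, the highest exceeded the lowest by a median factor of 2.69 over the 79 genes. The factor was more than 3 in 31 genes and less than 2 in 17. Il10-/- replicate 6 was the highest of the 11 colons in 52 of the 79 genes, where it was highest in 19.7% of all tested genes. Il10-/- Tnfr1-/- replicate 3 was the lowest in 54, where it was lowest in 8.79% of all tested genes, and Il10-/- Tnfr1-/- replicate 6 was the highest in 16. The median level of the 79 genes, after subtracting each gene's 11-library mean on the log2 scale, was -0.30, -0.15, 0.13, 0.07 and 0.77 in the Il10-/- colons. In Il10-/- Tnfr1-/- replicates 1 to 6 it was -0.15, 0.12, -0.54, -0.35, -0.01 and 0.37. These medians overlap between genotypes, with a mean of 0.10 ± 0.41 (SD, n = 5) against -0.09 ± 0.32 (SD, n = 6).

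**Figure D2:**
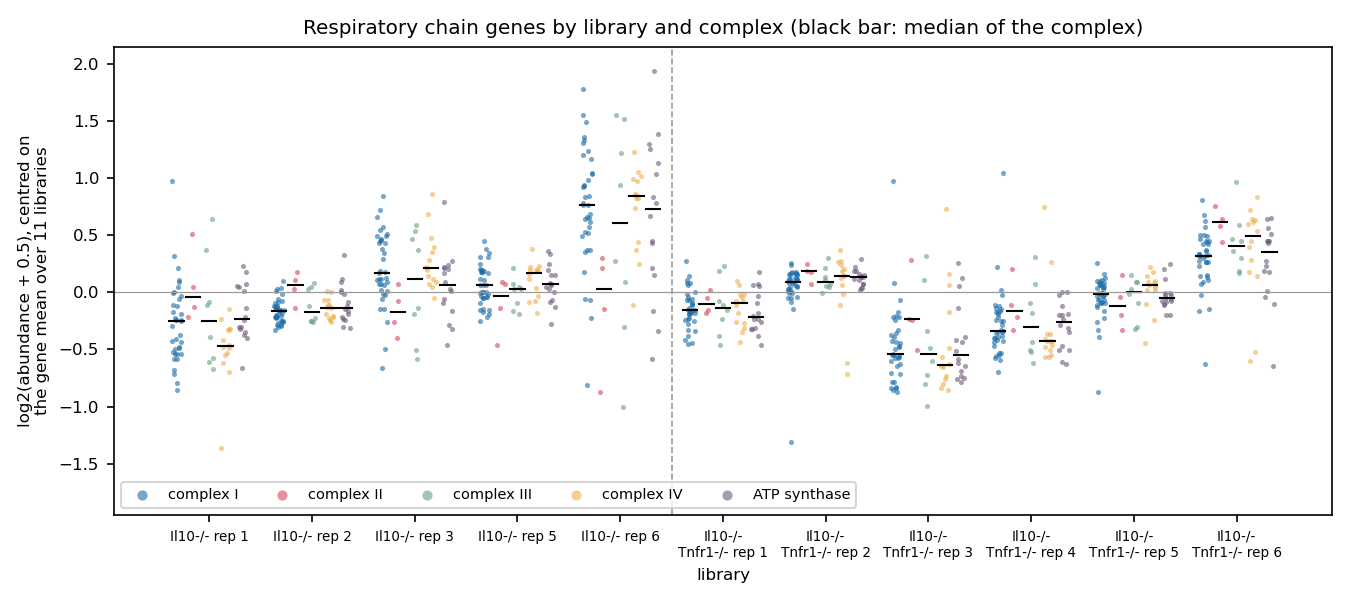
Level of each of the 79 tested genes in each library, as log2(abundance + 0.5) minus that gene's own 11-library mean, coloured by complex, with a black bar at each complex's median. Il10-/- replicate 6 is high (complex I median 0.77, complex IV 0.84) except in complex II (0.03), Il10-/- Tnfr1-/- replicate 3 is low, and Il10-/- Tnfr1-/- replicate 6 is high in every complex including complex II (0.62).

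The 2 high colons were high in different ways. In Il10-/- replicate 6 the medians were 0.77 for complex I, 0.61 for complex III, 0.84 for complex IV and 0.73 for the ATP synthase, but 0.03 for complex II. In Il10-/- Tnfr1-/- replicate 6 all complexes were raised, with 0.32, 0.40, 0.49 and 0.35 for the same 4 complexes and 0.62 for complex II. The colonocyte markers moved with the latter colon: their score, the mean centred log2 level of the list's tested genes, was 1.94 in Il10-/- Tnfr1-/- replicate 6, 0.37 in Il10-/- replicate 6 and -1.09 in Il10-/- Tnfr1-/- replicate 3. The smooth muscle score was -0.53, -0.58, 1.31, -2.64 and -2.38 in Il10-/- replicates 1, 2, 3, 5 and 6. In Il10-/- Tnfr1-/- replicates 1 to 6 it was 1.01, -0.69, 2.26, 2.26, 0.65 and -0.66. The part of either cell type in the respiratory chain levels was not tested by library.

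Most of the genes share, beyond their function, a high abundance and a short transcript. The median of the genes' mean abundances was 333 over the 79 genes and 11.3 over all tested genes. The part of abundance in the differences was not tested apart from that of length. The length of each gene was taken as the mean annotated length of its transcripts weighted by their abundance. Its median was 629 bases over the 79 genes and 2215 bases over all tested genes with a length, and 63 of the 79, or 79.7%, were under 1000 bases, where 15.3% of all tested genes were. Sorted by this length, the members' medians lay near those of all genes below 1000 bases, but more of the members were lower. Up to 700 bases 93.75% of members had a negative log2 difference, beside 71.1% of all genes. From 700 to 1000 bases the shares were 93.3% and 70.4%. The medians of members and all genes had opposite signs from 1000 to 1500 bases. Up to 700 bases the median log2 difference was -0.25 over 48 members and -0.22 over all 988 genes of that length. From 700 to 1000 bases it was -0.19 over 15 members and -0.18 over 1063 genes. From 1000 to 1500 bases it was 0.05 over 11 members and -0.08 over 1929 genes, and over 1500 bases it was 0.05 over 5 members and 0.13 over 9400 genes. Across genes, which are not independent and share their libraries, the correlation of log length with the log2 difference was 0.56 over the 79 members and 0.29 over 13380 genes.

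**Figure D3:**
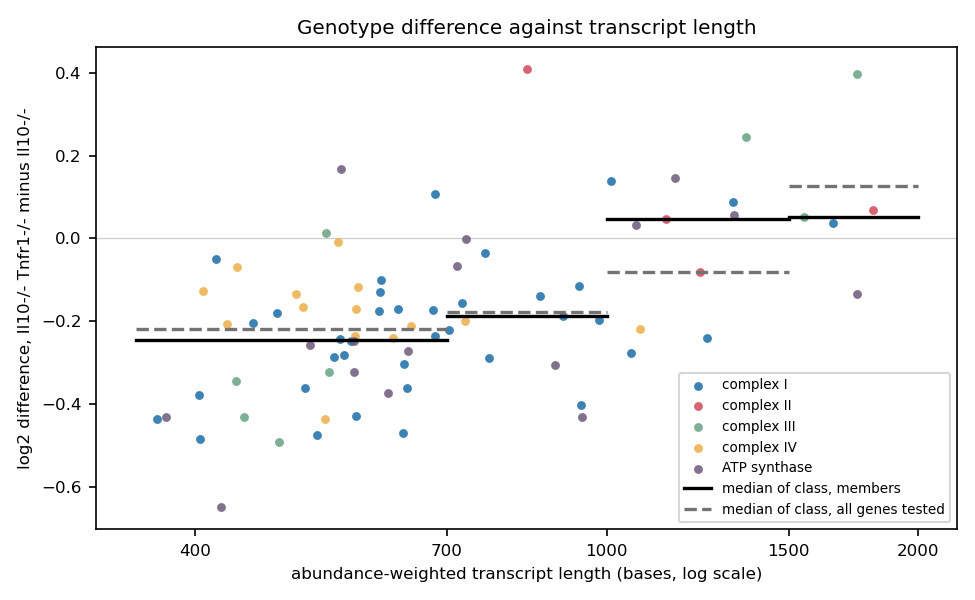
Log2 difference of each of the 79 genes between genotypes (Il10-/- Tnfr1-/- minus Il10-/-) against its abundance-weighted transcript length on a log axis, coloured by complex. Solid lines are the members' medians and dashed lines the medians of all tested genes in 4 length classes: both lie near -0.2 below 1000 bases and near or above 0 over 1500 bases.

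The same split by length ran through single libraries. In Il10-/- replicate 6 the members up to 700 bases had a median centred level of 0.94, those of 700 to 1000 bases 0.57, those of 1000 to 1500 bases 0.22 and those over 1500 bases -0.06. All tested genes in those classes had medians of 0.62, 0.50, 0.27 and -0.24 in that colon. In Il10-/- Tnfr1-/- replicate 3 the members' medians were -0.63, -0.44, -0.24 and -0.21 and those of all genes -0.31, -0.24, -0.06 and 0.28. Il10-/- Tnfr1-/- replicate 6 showed no such order, with members at 0.42, 0.32, 0.44 and 0.43 and all genes at -0.12, -0.02, -0.06 and -0.10. Of the 52 genes that were highest in Il10-/- replicate 6, 48 were among the 63 under 1000 bases and 4 among the 16 longer ones. The 4 members with their lowest value in Il10-/- replicate 6 were Sdhc (838 bases), Uqcrc2 (1746 bases), Atp5g2 (731 bases) and Atp5j (553 bases), so short members were among them.

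**Figure D4:**
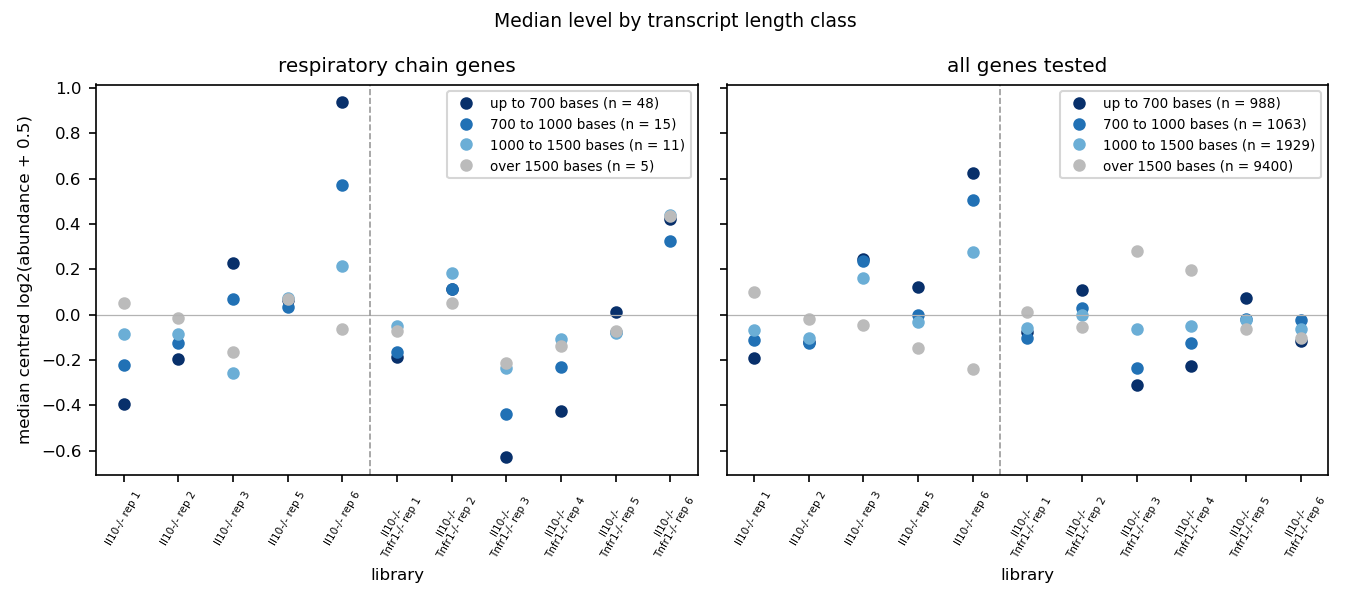
Median centred log2(abundance + 0.5) in each library by transcript length class, for the 79 respiratory chain genes (left) and all tested genes (right). In Il10-/- replicate 6 the classes spread from 0.94 for the shortest members to -0.06 for the longest, in Il10-/- Tnfr1-/- replicate 3 they are in the opposite order, and in Il10-/- Tnfr1-/- replicate 6 the members' classes lie together near 0.4.

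The common sign of the differences changed with the processing and the choice of colons. Without Il10-/- replicate 6 the median log2 difference of the 79 genes was -0.04, with 52 below 0. With the linear trend on log length taken out of each library it was 0.01, with 37 below 0. Among the colons whose names start with 1, 3 Il10-/- against 2 Il10-/- Tnfr1-/-, it was 0.07 with 24 below 0. The fit with the name's first digit as a covariate gave the same 0.07 by construction, since only a leading 1 occurs in both genotypes. That fit is therefore not a second result. Adding a smooth muscle score to the fit gave 0.08. Setting every library to an equal total moved the median of all tested genes from 0.05 to 0.19 and that of the members to -0.06, so the distance between them stayed at 0.25. Quantile normalization, which gives every library the same distribution, put the members at -0.03 and all genes at -0.02. No respiratory chain gene had an adjusted p below 0.249 by limma in any of the 24 alternatives.

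**Figure D5:**
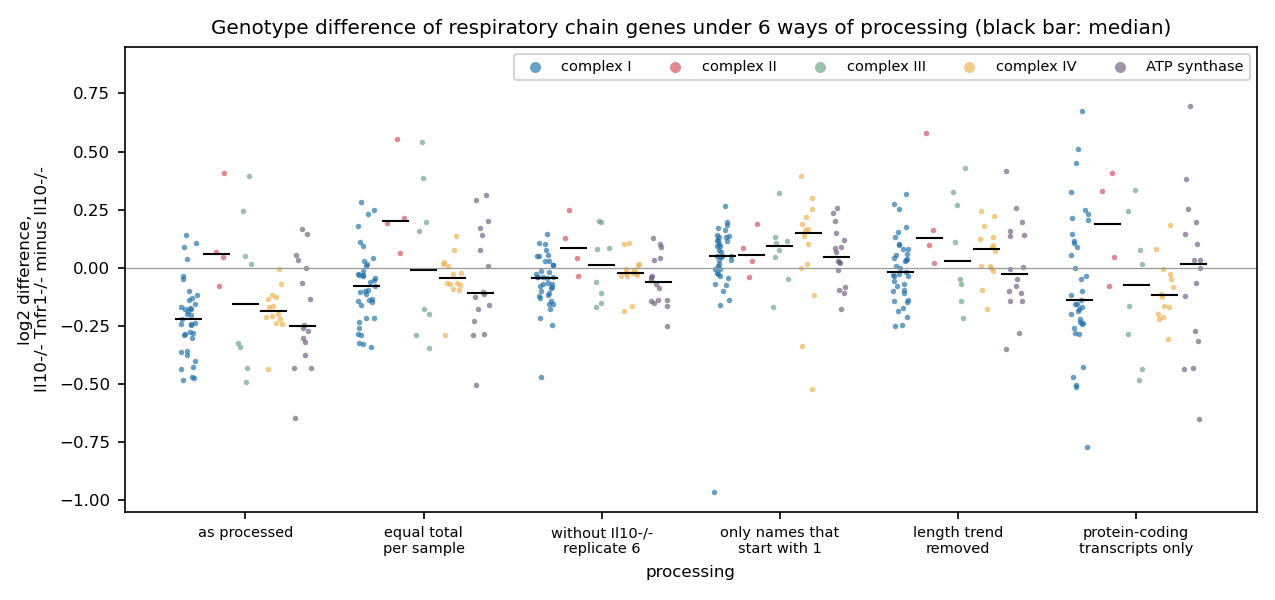
Log2 difference of each respiratory chain gene between genotypes under 6 ways of processing, coloured by complex, with a black bar at each complex's median. The medians of complexes I, III, IV and the ATP synthase lie between -0.25 and -0.15 as processed, and within 0.1 of 0 both without Il10-/- replicate 6 and with the length trend removed.

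Several subunits exist as tissue-specific paralogs, and the share of one form within its set does not depend on the scaling between libraries. The colon held mostly the ubiquitous forms. Cox4i2, the oxygen-responsive form of subunit 4, made up 0.154% ± 0.0445 (SD, n = 5) of Cox4i1 plus Cox4i2 for Il10-/- colons and 0.201% ± 0.180 (SD, n = 6) for the other genotype. Cox6b2, the testis form, made up 1.22% ± 0.479 and 1.31% ± 0.643 of subunit 6b. Cox7a1, the form of heart and skeletal muscle, made up 9.50% ± 0.673 and 10.4% ± 2.74 of Cox7a1 plus Cox7a2. Ndufa4l2, a hypoxia-induced paralog of Ndufa4, made up 0.677% ± 0.531 and 0.684% ± 0.588 of that pair. The groups overlapped in all these shares, and the mean differences were smaller than the SD in at least one group.

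The shares of Cox4i2, Cox6b2, Cox7a1 and Ndufa4l2 were each highest in Il10-/- Tnfr1-/- replicate 3. Cox4i2 made up 0.484% in replicate 3 and 0.371% in replicate 4, and between 0.0673% and 0.123% in the other 4 Il10-/- Tnfr1-/- colons. Cox7a1 made up 15.0% in replicate 3 and between 7.20% and 11.4% in the other 5, with 9.66% in replicate 4. Ndufa4l2 made up 1.58% in replicate 3 and 1.23% in replicate 4, but also 1.56% in Il10-/- replicate 1. Il10-/- Tnfr1-/- replicates 3 and 4 had the highest smooth muscle score of 2.26 each, with pericyte and endothelium scores of 1.20 and 1.69. In Il10-/- replicate 1 these scores were -0.53 and -0.66. The part of those cells in the paralog shares was not tested.

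The c ring of the ATP synthase is encoded by 3 genes whose mature proteins are the same. Atp5g1 made up 35.5% ± 3.74 (SD, n = 5) of their sum for Il10-/- colons and 32.0% ± 1.13 (SD, n = 6) for the other genotype, Atp5g2 10.9% ± 2.55 and 12.0% ± 3.62, and Atp5g3 53.6% ± 2.94 and 55.9% ± 3.20. Atp5g1 was at 30.2%, 33.1%, 37.1%, 38.0% and 39.2% in the Il10-/- colons and between 30.1% and 33.6% in the others, so 3 Il10-/- colons lay above the whole other group. Atp5g2 behaved unlike most members: it was lowest in Il10-/- replicate 6, at 158, and highest in Il10-/- Tnfr1-/- replicate 3, at 239.

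Forms known from other tissues were at or near 0. Cox8c, the testis form of subunit 8, was listed at 0 in all 11 libraries. Cox7b2 was above 0 in 2 colons and reached 0.0915, Cox6a2 (heart and skeletal muscle) reached 0.319, and Cox8b, the muscle and brown fat form, ran from 0 to 4.06. All 4 failed the filter on low values. The 5 pseudogene symbols were listed between 0 and 2.03. The longest exact stretch that the transcripts of a paralog pair shared was 10 to 33 bases, below the 75 bases of a read. It was 76 bases between Atp5l and Atp5l-ps2 and 88 bases between Uqcrh and Uqcrh-ps1, so reads of those genes can be split between the copies.

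Single transcripts showed little more than their genes. Of the 363 annotated member transcripts 255 were tested, and 0 passed a limma adjusted p of 0.05, as did 0% of all 27895 tested transcripts. At an unadjusted p under 0.05 there were 5, or 1.96%, where 6.27% of all tested transcripts were. The genotypes did not overlap in 2, beside 0.416% of all tested transcripts. The first was a minor transcript of Atp5j, coupling factor 6 of the ATP synthase stalk (ENSMUST00000114193.7). It was at 11.6, 19.4, 13.1, 10.3 and 8.55 in the Il10-/- colons and between 3.75 and 8.02 in the others, with a log2 difference of -1.07 ± 0.26 (SE, limma adjusted p = 0.646). It made up 0.518% to 2.58% of Atp5j, whose sum had a log2 difference of 0.17.

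The second was the long form of Ndufv3, a complex I subunit with a tissue-dependent spliced form (ENSMUST00000046288.14, 1582 bases). It was at 14.0, 13.5, 13.9, 16.0 and 14.7 in the Il10-/- colons and between 16.3 and 27.7 in the others, with a log2 difference of 0.39 ± 0.17 (SE, limma adjusted p = 0.646). Its share of Ndufv3 was 4.28% ± 1.17 (SD, n = 5) and 6.55% ± 1.39 (SD, n = 6). The main form, of 493 bases, held at least 89.5% of the gene in every colon and had a log2 difference of -0.27.

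For 18 of the 83 genes the most abundant transcript was one that the annotation does not class as protein-coding. For Cox7b it was a retained-intron transcript of 526 bases with 90.5% ± 2.70 (SD, n = 5) and 88.6% ± 1.67 (SD, n = 6) of the gene. For Atp5j it was a retained-intron transcript of 526 bases with 79.5% ± 4.63 and 77.1% ± 3.80, and for Atp5b a processed transcript of 478 bases with 53.8% ± 16.0 and 44.7% ± 11.6. Over all members the protein-coding transcripts held 70.9% ± 5.18 of the summed abundance in Il10-/- and 74.3% ± 3.32 in Il10-/- Tnfr1-/- colons, from 66.3% in Il10-/- replicate 3 to 79.1% in Il10-/- Tnfr1-/- replicate 3. How the reads of a gene divide between such overlapping models is an estimate of the quantifier.

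In the authors' deposited table, 3 of 282 member transcripts with a p-value had one under 0.05, or 1.06%, beside 6.83% of all 43192 transcripts with a p-value. The smallest q-value there among the members was 0.684. The smallest p-value of a member in the authors' deposited table, 0.0218, belonged to a transcript of Ndufb2 (ENSMUST00000119379.1).

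Many respiratory chain promoters lack a TATA box and carry sites for NRF1, the ETS factor GABP and YY1, regulators that tie nuclear to mitochondrial gene expression. RefSeq promoters of 300 bases (250 before and 50 after the start, GRCm38.p6) were found for 68 of the 83 genes, in 73 windows. On both strands, the core of the NRF1 palindrome, CGCATGCG, was in 9 of the 73, or 12.3%, and in 1.87% of all 32851 windows. The ETS letters CCGGAAG were in 16, or 21.9%, and in 8.86% of all windows. The YY1 letters AAGATGGCG were in 7, or 9.59%, and in 1.4% of all windows, and TATAAA was in 8, or 11%, and in 13.6% of all windows. The ETS and YY1 letters share AAG, so a pair of matches can overlap there. In 7 genes the palindrome lies in the 250 bases before the start, and that stretch is shown for 4 of them, which span 3 complexes and include Atp5j and Atp5g2, described above. Capitals mark the palindrome core and the ETS letters, which read CTTCCGG where they lie on the other strand. The windows are chr17:56717512-56717761 (plus strand) for Ndufa11, chr5:115348959-115349208 (minus) for Cox6a1, chr15:102671048-102671297 (minus) for Atp5g2 and chr16:84834977-84835226 (minus) for Atp5j.
Ndufa11: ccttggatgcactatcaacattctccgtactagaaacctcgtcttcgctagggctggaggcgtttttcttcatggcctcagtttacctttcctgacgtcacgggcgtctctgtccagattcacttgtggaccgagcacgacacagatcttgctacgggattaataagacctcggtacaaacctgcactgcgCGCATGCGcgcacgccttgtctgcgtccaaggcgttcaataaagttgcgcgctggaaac
Cox6a1: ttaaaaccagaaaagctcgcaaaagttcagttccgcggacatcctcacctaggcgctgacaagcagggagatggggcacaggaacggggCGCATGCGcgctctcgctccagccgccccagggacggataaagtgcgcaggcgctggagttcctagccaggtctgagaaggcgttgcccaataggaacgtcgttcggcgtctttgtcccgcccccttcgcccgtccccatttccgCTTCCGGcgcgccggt
Atp5g2: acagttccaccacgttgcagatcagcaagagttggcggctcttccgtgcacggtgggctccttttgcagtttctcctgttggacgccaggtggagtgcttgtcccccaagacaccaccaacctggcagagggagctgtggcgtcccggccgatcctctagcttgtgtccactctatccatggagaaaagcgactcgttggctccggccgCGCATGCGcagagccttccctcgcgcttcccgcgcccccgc
Atp5j: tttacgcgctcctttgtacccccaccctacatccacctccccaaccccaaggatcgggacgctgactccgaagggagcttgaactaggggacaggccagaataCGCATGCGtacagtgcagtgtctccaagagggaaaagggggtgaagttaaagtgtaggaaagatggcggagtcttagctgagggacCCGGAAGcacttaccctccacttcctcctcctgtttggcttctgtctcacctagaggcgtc
A match of letters is a description and not a bound site. The 4 genes did not behave alike between the genotypes: the log2 differences were -0.29 for Ndufa11, -0.17 for Cox6a1, -0.002 for Atp5g2 and 0.17 for Atp5j. Of the factors themselves, Nrf1 had a log2 difference of -0.08 ± 0.19 (SE, limma adjusted p = 0.856). Yy1 had one of 0.51 ± 0.27 and Gabpa, which encodes the DNA-binding subunit of GABP, one of 0.94 ± 0.52 (SE, both with a limma adjusted p of 0.536). Gabpb1, its partner subunit, had one of 0.15 ± 0.16 (SE, limma adjusted p = 0.667).

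The wider machinery of oxidative metabolism gave counts of the same kind. In each list, 0 genes passed a limma adjusted p of 0.05. Beside the counts at an unadjusted p under 0.05 given for the lists, 4.74% of all tested genes were higher and 3.6% lower. The subunits and carriers outside the symbol rule had a median log2 difference of -0.24 over 5 genes, with none at an unadjusted p under 0.05. Among them Cycs, cytochrome c, was at 286 ± 123 (SD, n = 5) and 325 ± 161 (SD, n = 6), Cyc1, cytochrome c1, at 395 ± 51.9 and 385 ± 81.6, and Ndufab1, the acyl carrier protein of complex I, at 283 ± 107 and 239 ± 78.7. The 46 tested assembly factors had a median of -0.03, with 1 higher at an unadjusted p under 0.05. That was Nubpl, which inserts iron-sulfur clusters into complex I, at 3.62 ± 1.06 and 6.34 ± 1.80 (log2 difference 0.72 ± 0.24, SE, limma adjusted p = 0.536). Coa5, a complex IV assembly factor, came next with a log2 difference of 0.35 ± 0.17 (SE).

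The 13 subunits encoded by mitochondrial DNA had a median log2 difference of 0.18, with none at an unadjusted p under 0.05. The genes with the smallest p were mt-Atp8, at 0.76 ± 0.48, and mt-Nd4l, at 0.63 ± 0.63 (SE). Their score was lowest in Il10-/- replicate 3 (-1.15) and highest in Il10-/- Tnfr1-/- replicate 1 (0.93), and it was -0.55 in Il10-/- replicate 6, where the nuclear-encoded partners were highest. The 78 proteins of the mitochondrial ribosome, most of them also encoded by short transcripts with a median of 943 bases, had a median of -0.18 with 63 below 0. Of the 78, 1 was higher and 4 were lower at an unadjusted p under 0.05, where 4.74% of all tested genes were higher and 3.6% lower. The smallest p belonged to Mrps31 (0.42 ± 0.15) and Mrpl52 (-0.65 ± 0.25, SE). Their score was also highest in Il10-/- replicate 6 (0.51) and lowest in Il10-/- Tnfr1-/- replicate 3 (-0.32).

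The 18 enzymes of the citrate cycle and pyruvate entry had a median of 0.01, with Suclg2, the GTP-forming succinyl-CoA ligase subunit, alone higher at an unadjusted p under 0.05 (0.48 ± 0.20, SE) and Dld next (0.37 ± 0.20). The 13 genes of ubiquinone synthesis had a median of -0.18, with Coq10b at 0.48 ± 0.24 and Coq2 at -0.23 ± 0.13. The 12 tested regulators of mitochondrial biogenesis had a median of 0.12, and Esrra, a nuclear receptor of mitochondrial genes, and Yy1 had the smallest p, with Esrra at -0.37 ± 0.19. The 15 tested glycolysis genes had a median of -0.17 with 14 below 0, and Pkm and Tpi1 had the smallest p, at -0.40 ± 0.34 and -0.31 ± 0.27. In the last 3 lists none was at an unadjusted p under 0.05.

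Markers of other cells in the bulk tissue had median log2 differences of 1.77 for smooth muscle (10 genes), 0.62 for striated muscle (3 tested), 0.80 for adipocytes (2 tested), -0.13 for colonocytes (8), -0.27 for goblet cells (5) and 0.89 for pericytes and endothelium (6). They were 0.64 for leukocytes (4 tested), -3.00 for neutrophils (3 tested), 1.22 for enteric neurons and glia (6) and 0.12 for Cajal cells (2). In none did a gene pass a limma adjusted p of 0.05. In Il10-/- replicate 6 the scores were 3.56 for neutrophils, 0.91 for goblet cells and -1.73 for enteric neurons and glia, and in Il10-/- Tnfr1-/- replicate 3 they were -1.16, -0.10 and 0.91. With the smooth muscle score in the fit, as given above, the median of the respiratory chain genes was 0.08 in place of -0.20. The part of the other cell types in their levels was not tested.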

How the data were processed

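Bulk colon RNA of 11 mice was analysed. Per the labels' protocols, RNA was purified from Trizol and stranded mRNA libraries were sequenced from one end over 75 bases. CASAVA, kallisto, sleuth and mm10 appear in the submitters' processing notes, with no versions. The authors deposited an abundance signal per transcript and library, scaled and divided by length, which is not a count, so depth cannot be stated and intervals for counting error are left out. Per the file headers, the authors also deposited a p-value, a q-value, a fold ratio, a log2 fold and a natural log mean for each transcript. Of 12 labelled samples, 11 had a matching column. Il10-/- replicate 4 had none, and 1 column matched no sample and was not used. Replicates are numbered in sample order. The labels do not say whether mice share a litter, so p-values measure only the spread between these samples.

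Of 114059 rows, 866 repeats were dropped and 113193 transcripts were summed over 35688 genes. Genes that exceeded 1 in 5 or more libraries were tested on log2(value + 0.5), which understates changes of low genes, with limma 3.58.1 in R 4.3.3 (trend, robust, two-sided, Benjamini-Hochberg, threshold 0.05). Differences are Il10-/- Tnfr1-/- minus Il10-/-, and errors are SD or SE as stated. The fit was tested on simulated data. Lengths, transcript classes and coordinates are from GENCODE M21 (GRCm38), which matched 98.38% of transcripts, and promoters from RefSeq. Named are, per complex, the most abundant gene and the 2 with the smallest p, all Sdh genes, the paralog sets, genes whose groups do not overlap, and the 2 with the smallest p in each pathway list. Other genes and transcripts named were chosen after their values were seen. The members and lists were chosen with earlier results of these data known. Alternatives were other scalings, pseudocounts, filters, variance moderation, left-out libraries, the name's first digit, a smooth muscle score and, chosen after seeing the data, removal of the length trend and protein-coding transcripts only.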

Additional observations from a re-analysis of the deposited data

Results flagged for a closer look

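For 62 groups of values of the named respiratory chain genes, the distance of the highest or lowest colon to its nearest neighbour was compared with the range of its group, and 8 stood apart by Dixon's criterion, which chance meets in about 1 in 20 groups. Il10-/- replicate 6 stood high in Atp5d (1321) and Cox7a1 (173.8). Il10-/- Tnfr1-/- replicate 6 stood high in Sdhb (301.9), replicate 2 of that genotype stood high in Ndufb2 (202.7), and replicate 3 stood low in Ndufa4 (522.3). The others were single colons in genes near 0: Cox8b at 4.06 in Il10-/- replicate 3, and Cox7b2 at 0.07631 in Il10-/- replicate 1 and 0.09153 in Il10-/- Tnfr1-/- replicate 5, the one colon above 0 in each genotype. Over all tested respiratory chain genes 20 of 158 groups had such a colon, which was Il10-/- replicate 6 in 13 and Il10-/- Tnfr1-/- replicate 6 in 5.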

How the results depend on the processing

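No respiratory chain gene passed an adjusted p of 0.05 by limma in any of the 24 alternatives. Over all genes the count of 0 became 1 with quantile normalization. Leaving out 1 library at a time gave 0 to 2 genes and 0 to 1 transcripts, the upper counts without Il10-/- replicate 2; the cause was not tested. At an unadjusted p under 0.05 the members' count of 0 became 4 without Il10-/- replicate 1, and 1 each without Il10-/- replicate 2, with the smooth muscle score and with protein-coding transcripts only. The members' median log2 difference of -0.20 ran from -0.34 without Il10-/- replicate 1 to -0.04 without Il10-/- replicate 6, and from -0.34 to 0.08 over all alternatives. No single alternative moved it by more than the spread between libraries of 0.36. That spread is larger than the difference of -0.20 itself, so this comparison cannot tell a kept difference from a lost or reversed one. Each complex's median also took both signs: complex I from -0.34 to 0.05, complex II from -0.06 to 0.28, complex III from -0.25 to 0.09, complex IV from -0.34 to 0.16 and the ATP synthase from -0.36 to 0.05. Differences in paralog shares also moved by less than their spread, and they took both signs except for Atp5g1 and Atp5g3. No paired analysis was possible because replicate numbers follow sample order and tie no mice across genotypes. The unknown depth sets no counting limit that could be stated, and most genes of the pathway have short transcripts, the class whose levels differed most between libraries.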
